A study of Homo sapiens with 8 samples.

Results

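Of the 56303 genes of the count table, 10 were chosen by name because they encode plasma membrane carriers of amino acids or a subunit of such carriers: SLC7A5, SLC3A2, SLC7A11, SLC1A5, SLC1A4, SLC38A1, SLC38A2, SLC7A1, SLC7A3 and SLC43A1. These 10 genes were chosen with earlier results of these data known. They were followed in SK-N-BE(2), an established human neuroblastoma line with amplified MYCN, which carried either a control hairpin (sh-NC) or a short hairpin RNA against METTL14 (shMETTL14), a subunit of the complex that writes N6-methyladenosine (m6A) on mRNA. Both arms were made with the pLKO.1 lentiviral vector and received no other treatment in the labels. Each arm had 2 cultures, and each culture gave an input library of fragmented polyadenylated RNA and an IP library of the fragments caught by an antibody to m6A, which makes 8 libraries in all. The labels number the cultures 1 and 2 without saying whether the shMETTL14 cultures carried the same hairpin or were infected separately, so the tests measure the spread between these libraries, which may be technical. SLC7A5 was singled out because its IP over input was already known to fall in these data. Its differences between the arms are therefore given as values with no test. The other transporters were tested within fits over all genes, in which SLC7A5 was kept.

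The totals were 32027379 to 47205265 counts per library. Levels are given as CPM, the count scaled by library size and TMM factors over the 8 libraries. METTL14 RNA stood at 49.5 and 48.7 CPM in sh-NC inputs against 13.7 and 14.6 CPM in those of shMETTL14, a log2 change of -1.79 (SE 0.0663, edgeR quasi-likelihood adjusted p 1.28e-15), so the libraries carried the knockdown that their labels name. All 10 neuroblastoma markers were detected at 1 CPM or more in both arms, with sums of 5875 to 6106 CPM in the sh-NC inputs and 6215 to 6297 CPM in the shMETTL14 inputs, and 7 of the 10 rose. Of 10 mesenchymal or fibroblast markers, 9 reached 1 CPM in both arms with sums of 632 to 638 CPM in sh-NC and 614 to 623 CPM in shMETTL14, 4 rose and 4 fell. Over all genes tested, 11.7% were called higher and 12.3% lower in the inputs. Of 5 epithelial markers, 2 reached 1 CPM, with sums of 7.91 to 8.39 CPM in sh-NC and 6.74 to 7.47 CPM in shMETTL14, and KRT5 was at 0 in both shMETTL14 inputs. The part that these markers may have in the transporter values was not tested. In bulk RNA, fewer cells expressing a gene and less RNA per cell cannot be told apart.

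Amino acids do not cross the plasma membrane on their own, and cells divide the work among several carrier families. SLC7A5 (LAT1) exchanges leucine and other large neutral amino acids against intracellular glutamine, and it reaches the membrane only when paired with the glycoprotein SLC3A2 (CD98 heavy chain). SLC7A11 (xCT) uses the same heavy chain and imports cystine in exchange for glutamate. SLC1A5 (ASCT2) and SLC1A4 (ASCT1) exchange small neutral amino acids, glutamine being the best known cargo of SLC1A5. SLC38A1 and SLC38A2 (SNAT1 and SNAT2) take up glutamine and alanine together with sodium, SLC7A1 and SLC7A3 (CAT1 and CAT3) carry arginine and lysine, and SLC43A1 (LAT3) carries leucine without a heavy chain. Leucine and arginine that enter through these carriers are sensed by mTORC1, and shortage of amino acids raises translation of the transcription factor ATF4, which induces several of the carriers. In neuroblastoma with amplified MYCN, the uptake of glutamine is a known demand of the cells.

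Levels were compared between genes as CPM per kb of merged exon length. In the sh-NC inputs, 5 transporters lay close together at the top of the order. SLC38A2 was highest at 30.8 ± 0.179 CPM per kb (SD, n = 2), followed by SLC7A5 at 27.4 ± 3.21, SLC3A2 at 23.8 ± 2.11, SLC1A5 at 22.8 ± 0.0197 and SLC38A1 at 22.0 ± 0.423. These values placed the 5 genes between the 90.5th and 93.4th percentile of the genes tested. SLC7A5 and SLC3A2 overlapped between the cultures, and so did SLC3A2 and SLC1A5, so these neighbours did not differ beyond their spread. SLC7A1 stood in the middle at 9.27 ± 0.0457 CPM per kb. SLC1A4 at 1.96 ± 0.251, SLC43A1 at 1.94 ± 0.102 and SLC7A11 at 1.77 ± 0.0358 CPM per kb formed a low group between the 42.2nd and 44.1st percentile, and the first pair of it overlapped. SLC7A3 had 3 counts in total over the 8 libraries (1 in an sh-NC IP and 2 in a shMETTL14 input). The other 6 libraries gave 0, which allows up to 3 counts, or 0.0707 to 0.0985 CPM, a limit that covers counting error only, and SLC7A3 entered no test. The 9 other members passed the filter on low counts.

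In the shMETTL14 inputs the order changed within the top group. SLC38A2 led at 23.0 ± 0.0630 CPM per kb (SD, n = 2), followed by SLC38A1 at 22.7 ± 0.0511, then SLC3A2 at 22.4 ± 0.118 and SLC7A5 at 19.7 ± 0.265, which overlapped SLC1A5 at 19.0 ± 0.705. SLC7A1 was at 5.95 ± 0.357, SLC43A1 at 1.86 ± 0.328, SLC1A4 at 1.60 ± 0.0105 and SLC7A11 at 1.18 ± 0.0682 CPM per kb. SLC7A5 thus moved from the second place to the fourth and SLC38A1 from the fifth to the second. Summed over the 10 genes, the level was 142 ± 1.18 CPM per kb in sh-NC and 117 ± 1.71 in shMETTL14 inputs, 17.1% lower. This sum includes SLC7A5, at 27.4 CPM per kb in sh-NC and 19.7 in shMETTL14, which was singled out beforehand.

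**Figure D1:**
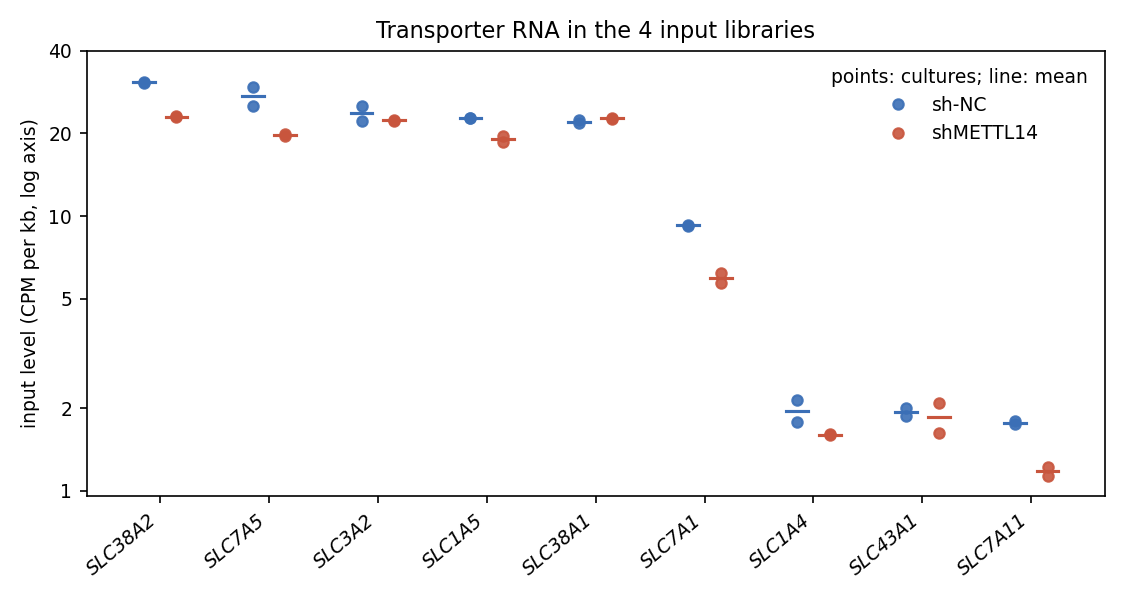
Input level of each transporter in CPM per kb on a log axis, with 1 point per culture (2 per arm) and a line at the mean. Levels fall from 30.8 CPM per kb for SLC38A2 to 1.77 for SLC7A11 in sh-NC. The shMETTL14 points lie below the sh-NC points for 6 of the 9 genes shown, among them SLC7A5, which was singled out beforehand. This was the case for 29.9% of all genes tested.

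The first question was whether RNA of the transporters differed between the arms. Of the 8 transporters other than SLC7A5 that were tested on the inputs, 5 were lower in shMETTL14 and 0 were higher at an adjusted p under 0.05, where 12.3% of the 22245 genes tested were called lower and 11.7% higher. At an unadjusted p the counts were also 5 and 0, beside 3850 lower and 3725 higher of all 22245 genes. DESeq2 called 4 lower and 0 higher, beside 2016 lower and 1833 higher of all genes. Without shMETTL14 culture 2 the count was 3 lower, SLC1A5 and SLC1A4 being lost. The 8 genes had a median log2 change of -0.27 beside 0.002 over all genes tested. As the members were chosen with earlier results of these data known, the counts and the median describe this list only. The 2 shMETTL14 inputs lay below both sh-NC inputs for 6 of the 9 members, SLC7A5 included, which was the case for 29.9% of all genes tested.

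The leucine carrier SLC7A5 lies on chromosome 16 from 87830023 to 87869488 (GRCh38, reverse strand), with 4745 exonic bases in 11 merged exons. Its input level was 141 and 119 CPM in sh-NC and 94.4 and 92.6 CPM in shMETTL14, from 5029, 4296, 4003 and 3872 counts. The arms did not overlap, and the sh-NC cultures were farther apart than the shMETTL14 cultures. Its log2 change was -0.47, which left 28.0% less RNA in the shMETTL14 mean, and without sh-NC culture 1, the higher of the pair, it was -0.34. Reads from the near-identical pseudogenes SLC7A5P2 and SLC7A5P1 could be split between the copies. SLC7A5P2 held 356 to 592 counts per library, 7.08% to 11.5% of the SLC7A5 count in the inputs, with a log2 change of 0.04 (adjusted p 0.841). Its share was larger in the shMETTL14 IPs, at most 21.1% of the SLC7A5 count in culture 2, where SLC7A5P2 stood at 12.2 and 14.9 CPM beside 13.0 and 15.5 CPM in the sh-NC IPs. SLC7A5P1 held 42 to 89 counts with a log2 change of 0.28 (adjusted p 0.485). The opposite-strand gene RP4-536B24.2 shares 271 exonic bases with SLC7A5 and held at most 1.80% of its count.

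SLC3A2, the heavy chain that SLC7A5 and SLC7A11 share, lies on chromosome 11 from 62856102 to 62888875 (forward strand, 5178 exonic bases, 15 merged exons). Input SLC3A2 was 115 and 131 CPM in sh-NC and 115 and 116 CPM in shMETTL14. The arms overlapped, since sh-NC culture 1 sat at the level of the knockdown. The log2 change was -0.08 with 2 standard errors reaching from -0.18 to 0.01 (adjusted p 0.241). Here 1 library decided the value, since the change was -0.17 (adjusted p 0.0105) without sh-NC culture 1 and 0.01 (adjusted p 0.917) without sh-NC culture 2.

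Within a library, the ratio of light to heavy chain does not depend on the scaling. Per kb, SLC7A5 over SLC3A2 went from 1.33 and 0.993 in sh-NC to 0.893 and 0.870 in shMETTL14 inputs. In the IP libraries it went from 1.73 and 1.71 to 1.18 and 0.944. The shMETTL14 values were below the sh-NC values in both kinds of library, although sh-NC culture 2 was close to them in the inputs. As SLC7A5 was chosen for its fall, this is a description.

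SLC7A11, the cystine importer (chromosome 4 from 138164097 to 138242349, reverse strand, 9645 exonic bases in 12 merged exons), fell. It was at 17.3 and 16.8 CPM in the sh-NC inputs and 11.8 and 10.9 CPM in the shMETTL14 inputs, with no overlap. The log2 change was -0.58 (SE 0.0891, adjusted p 2.41e-05), 33.5% lower by the means. Its exons share 865 bases with SLC7A11-AS1 on the opposite strand. The strand setting of the counting is not given in the sources used here, and SLC7A11-AS1, whose count was 12.7% to 21.5% of that of SLC7A11 in the inputs, also fell (log2 change -0.70, adjusted p 0.0266), so reads of this pair cannot be told apart with certainty. The ratio of SLC7A11 to SLC3A2 per kb went from 0.0807 and 0.0692 in the sh-NC inputs to 0.0551 and 0.0504 in the shMETTL14 inputs.

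Both neutral amino acid exchangers passed the test, SLC1A5 with more margin than SLC1A4. SLC1A5 (chromosome 19 from 46774883 to 46788594, reverse strand, 3332 exonic bases in 9 merged exons), the glutamine exchanger, was at 75.9 and 76.0 CPM in sh-NC and 65.1 and 61.8 CPM in shMETTL14 inputs. It fell by 0.25 on the log2 scale (SE 0.0470, adjusted p 2.47e-04), and the call was lost without shMETTL14 culture 2 (adjusted p 0.0703). Of its exonic sequence, 780 bases (23.4%) are shared with CTB-147N14.6 on the opposite strand, whose count was 15.9% to 16.9% of that of SLC1A5 in the inputs with a log2 change of -0.23 (adjusted p 0.0928). SLC1A4 (chromosome 2 from 64988477 to 65023865, forward strand, 6939 exonic bases in 10 merged exons), which carries serine and alanine, was at 14.8 and 12.4 CPM in sh-NC and 11.2 and 11.1 CPM in shMETTL14. The cultures did not overlap, but its log2 change of -0.28 (SE 0.100, adjusted p 0.0402) rested largely on sh-NC culture 1. It was -0.15 (adjusted p 0.432) without that culture, and the call was also lost without shMETTL14 culture 1 (0.191), without shMETTL14 culture 2 (0.283), with DESeq2 (0.128) and without a filter on low counts (0.266, all adjusted p).

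The sodium-coupled carriers parted. SLC38A2 (chromosome 12 from 46358189 to 46372867, reverse strand, 6602 exonic bases in 14 merged exons), a carrier that amino acid shortage is known to induce, was at 204 and 202 CPM in sh-NC and 152 and 152 CPM in shMETTL14 inputs. It fell by 0.41 on the log2 scale (SE 0.0361, adjusted p 5.31e-09), 25.2% by the means. SLC38A1, its neighbour on the same chromosome from 46183063 to 46270017 (reverse strand, 10015 exonic bases in 22 merged exons), was at 218 and 224 CPM in sh-NC and 228 and 227 CPM in shMETTL14. Its log2 change was 0.05 with 2 standard errors from -0.02 to 0.12 (adjusted p 0.359). The ratio of SLC38A2 to SLC38A1 per kb went from 1.42 and 1.37 to 1.01 and 1.01 in the inputs and from 1.17 and 1.14 to 0.758 and 0.816 in the IP libraries.

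**Figure D2:**
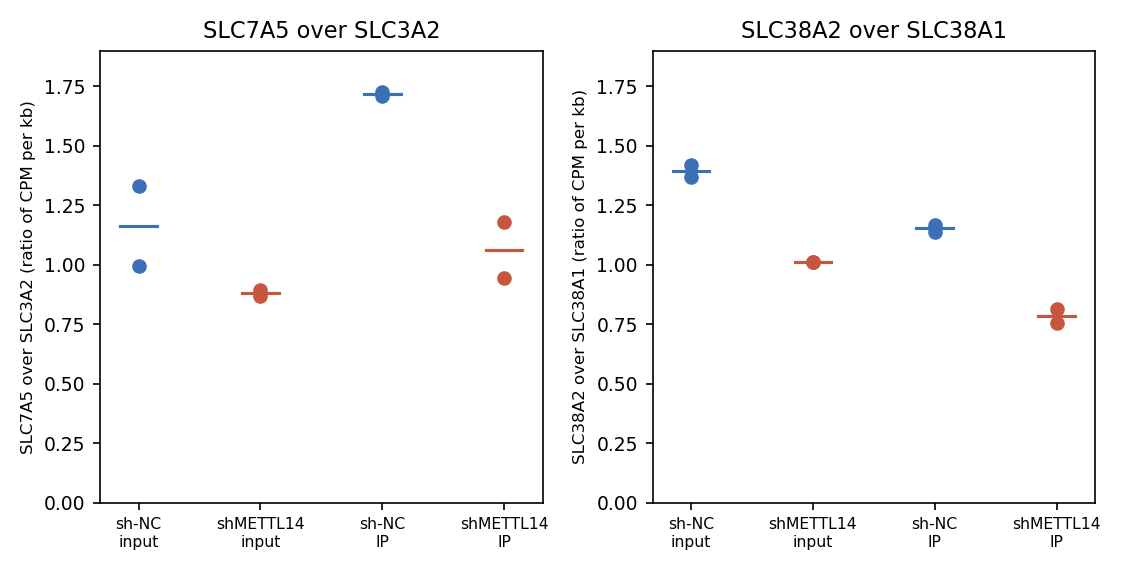
Ratio of CPM per kb of 2 transporters within each library, SLC7A5 over SLC3A2 (left) and SLC38A2 over SLC38A1 (right), with 1 point per library (2 per group) and a line at the mean. The shMETTL14 points lie below the sh-NC points in both pairs and in both kinds of library, for example 1.01 and 1.01 against 1.42 and 1.37 for SLC38A2 over SLC38A1 in the inputs.

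The arginine and lysine carrier SLC7A1 (chromosome 13 from 29509410 to 29595688, reverse strand, 7692 exonic bases in 14 merged exons) had the lowest log2 change of the members tested. It was at 71.0 and 71.5 CPM in the sh-NC inputs and 47.7 and 43.9 CPM in the shMETTL14 inputs, well apart. The log2 change was -0.63 (SE 0.0517, adjusted p 1.78e-09), 35.8% lower by the means. Its paralog SLC7A3 (chromosome X from 70925582 to 70931125, reverse strand, 2265 exonic bases in 12 merged exons) was the gene with 3 counts in all, described with the levels. SLC43A1, the leucine carrier that needs no heavy chain (chromosome 11 from 57484534 to 57515786, reverse strand, 3532 exonic bases in 19 merged exons), was at 7.10 and 6.59 CPM in sh-NC and 7.38 and 5.74 CPM in shMETTL14. Its arms overlapped, with a log2 change of -0.05 and 2 standard errors from -0.32 to 0.22 (adjusted p 0.835).

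The same contrast in the 4 IP libraries combines RNA level and capture by the antibody. There 5 of the 8 transporters other than SLC7A5 were lower and 0 higher, beside 12.6% of 21196 genes called lower and 10.4% higher. SLC38A1 was the 1 member with an unadjusted p under 0.05 in the higher direction, and DESeq2 was not run on these libraries alone. SLC7A11 was at 17.0 and 16.6 CPM in the sh-NC IPs and 10.4 and 11.7 CPM in the shMETTL14 IPs (log2 change -0.61, adjusted p 3.39e-06). SLC7A1 was at 63.1 and 62.2 CPM against 43.2 and 43.1 CPM (log2 change -0.54, adjusted p 1.15e-10). SLC38A2 was at 130 and 124 CPM against 92.0 and 93.4 CPM (log2 change -0.46, adjusted p 7.40e-11). The log2 changes of these 3 genes in the IPs were within 0.1 of those in the inputs. SLC1A5 was at 76.6 and 75.0 CPM against 60.0 and 58.8 CPM (log2 change -0.35, adjusted p 3.12e-07). SLC3A2, which missed the threshold in the inputs, was at 93.9 and 95.6 CPM against 78.6 and 81.8 CPM (log2 change -0.24, adjusted p 1.01e-04). SLC1A4 had a log2 change of -0.13 (adjusted p 0.462), SLC38A1 of 0.09 (adjusted p 0.108) and SLC43A1 of 0.24 (adjusted p 0.424), and none of these passed. SLC7A5 was at 149 and 150 CPM in the sh-NC IPs and 85.0 and 70.7 CPM in the shMETTL14 IPs, from 6760, 4561, 2620 and 2401 counts. Its log2 change in the IPs was -0.94, beside -0.47 in the inputs, and the shMETTL14 mean was 47.8% lower.

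**Figure D3:**
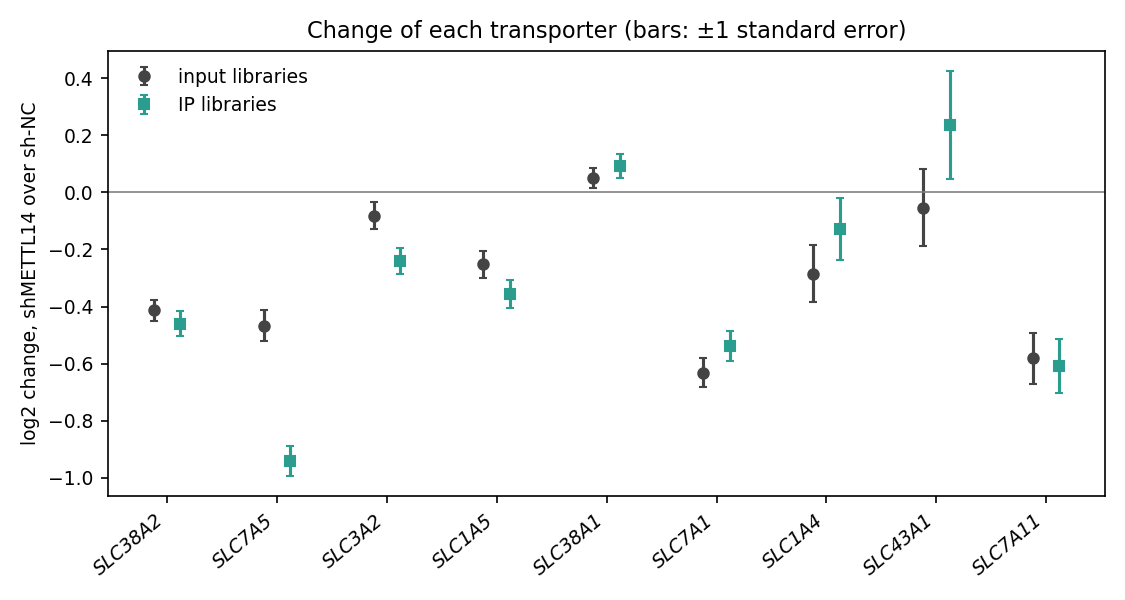
Log2 change of each transporter, shMETTL14 over sh-NC, in the 4 input libraries (circles) and in the 4 IP libraries (squares), with bars of 1 standard error from the edgeR fits. The circle and square lie close together for SLC38A2, SLC7A11 and SLC7A1, and apart for SLC7A5 (-0.47 and -0.94), which was chosen for this gap. Smaller gaps are seen for SLC43A1 (-0.05 and 0.24), SLC3A2 (-0.08 and -0.24) and SLC1A4 (-0.28 and -0.13).

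IP over input, the ratio of CPM of the IP and input libraries of a culture, describes how far fragments of a gene were enriched by the antibody relative to the other genes. Since each library was scaled to the others, a loss of m6A that was equal for every gene would leave no trace in it. In sh-NC, most transporters were at or below the middle of the genes tested. SLC7A5 was the highest member at 1.06 and 1.26 (61.8th percentile), and the mean of 1.16 ± 0.143 (SD, n = 2) was above 1. SLC1A5 at 1.01 and 0.987 (50.6th percentile) and SLC7A11 at 0.983 and 0.989 (49.7th percentile) were at the middle. SLC7A1 was at 0.888 and 0.870, SLC1A4 at 0.671 and 0.899, SLC3A2 at 0.814 and 0.731, and SLC38A1 at 0.776 and 0.740. The lowest were SLC38A2 at 0.638 and 0.615 (19.0th percentile) and SLC43A1 at 0.393 and 0.503 (8.3rd percentile), and every ratio of these 2 genes was below those of the other members.

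Of the 8 transporters other than SLC7A5, 6 were lower in the IP than in the input of sh-NC and 0 were higher, beside 29.8% of 22953 genes called lower and 29.1% higher. The 6 were SLC43A1 (log2 IP over input -1.18, adjusted p 4.72e-09), SLC38A2 (-0.67, 2.72e-20), SLC38A1 (-0.40, 1.42e-12), SLC3A2 (-0.38, 9.05e-10), SLC1A4 (-0.38, 0.00148) and SLC7A1 (-0.19, 0.00144). SLC7A11 (-0.02, adjusted p 0.862) and SLC1A5 (-0.002, adjusted p 0.973) did not pass. SLC1A4 rested on sh-NC culture 1, without which it was -0.14 (adjusted p 0.457) and the count was 5. The median of the 8 genes was -0.38 on the log2 scale, beside -0.01 over all genes. At an unadjusted p the counts were again 6 and 0, beside 7239 lower and 7048 higher of all genes. With DESeq2 they were also 6 and 0, beside 6038 lower and 6100 higher of all genes.

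In shMETTL14, 4 of the 8 were lower in the IP and 0 higher, beside 29.1% of all genes called lower and 28.9% higher. The unadjusted and DESeq2 counts of the 8 were the same. Over all genes, 7120 were lower and 7016 higher at an unadjusted p, and 5892 and 5981 with DESeq2. SLC43A1 (ratios 0.488 and 0.616, log2 -0.88), SLC38A2 (0.604 and 0.616, log2 -0.71), SLC3A2 (0.682 and 0.704, log2 -0.53) and SLC38A1 (0.809 and 0.764, log2 -0.35) passed, with adjusted p between 2.46e-06 and 1.41e-20. The other ratios were 0.862 and 0.865 for SLC1A4, 0.905 and 0.984 for SLC7A1, 0.921 and 0.952 for SLC1A5, and 0.880 and 1.07 for SLC7A11. SLC1A4, SLC7A1 and SLC1A5 lay near the threshold: all 3 were called lower, for a count of 7, with library sizes alone as scaling or when 10 counts were required in every library. Library sizes alone lowered the median log2 IP over input of all genes by 0.128 in sh-NC and by 0.120 in shMETTL14. Over all genes, 6673 were called lower in shMETTL14 in the main fit, and 5892 to 8080 across the alternative fits to all 8 libraries.

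The second question was whether IP over input differed between the arms. Of the 8 transporters other than SLC7A5, 0 passed in either direction by edgeR or DESeq2 after adjustment, and at an unadjusted p edgeR called 1 lower (SLC3A2) and DESeq2 called none. Over all genes, 0.00436% of 22953 were called lower and 0.0% higher, a background from which nothing is read here. The gene called lower was SLC7A5 itself, which was chosen for this fall, so the call carries no weight. At an unadjusted p under 0.05, edgeR called 760 lower and 696 higher. After adjustment DESeq2 called 0 genes. SLC3A2 had a log2 change of IP over input of -0.15 (unadjusted p 0.0299, adjusted p 0.720), with both shMETTL14 ratios below both sh-NC ratios. For SLC1A5 it was -0.09 with 2 standard errors from -0.23 to 0.04, and for SLC38A2 -0.04 from -0.16 to 0.08. SLC7A11 was at -0.02 (from -0.28 to 0.24), so the fall of its RNA was not accompanied by a detectable shift of the ratio at this depth. SLC38A1 was at 0.05 (from -0.06 to 0.16) and SLC7A1 at 0.10 (from -0.05 to 0.25). The widest intervals belonged to the genes with the lowest CPM (not divided by length), SLC1A4 at 0.16 (from -0.13 to 0.46) and SLC43A1 at 0.30 (from -0.14 to 0.75).

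SLC7A5 went from 1.06 and 1.26 in sh-NC to 0.901 and 0.764 in shMETTL14, from the 61.8th to the 35.5th percentile of the genes tested. Its log2 change of IP over input was -0.47, the value it was chosen for, and it ranged from -0.62 to -0.35 when 1 culture was left out. Both shMETTL14 ratios were below both sh-NC ratios for 3 of the 9 members, SLC7A5, SLC3A2 and SLC1A5, beside 17.2% of all genes, and above them for SLC7A1, beside 17.2% of all genes. The SLC7A5 ratios crossed 1 between the arms, which follows from the fall it was chosen for and is no evidence that it stands apart (1.56% of all genes did so). The place of the value 1 depends on the scaling: with library sizes alone the SLC7A5 ratios of sh-NC were 0.985 and 1.13 against 0.825 and 0.706 for shMETTL14, still without overlap.

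**Figure D4:**
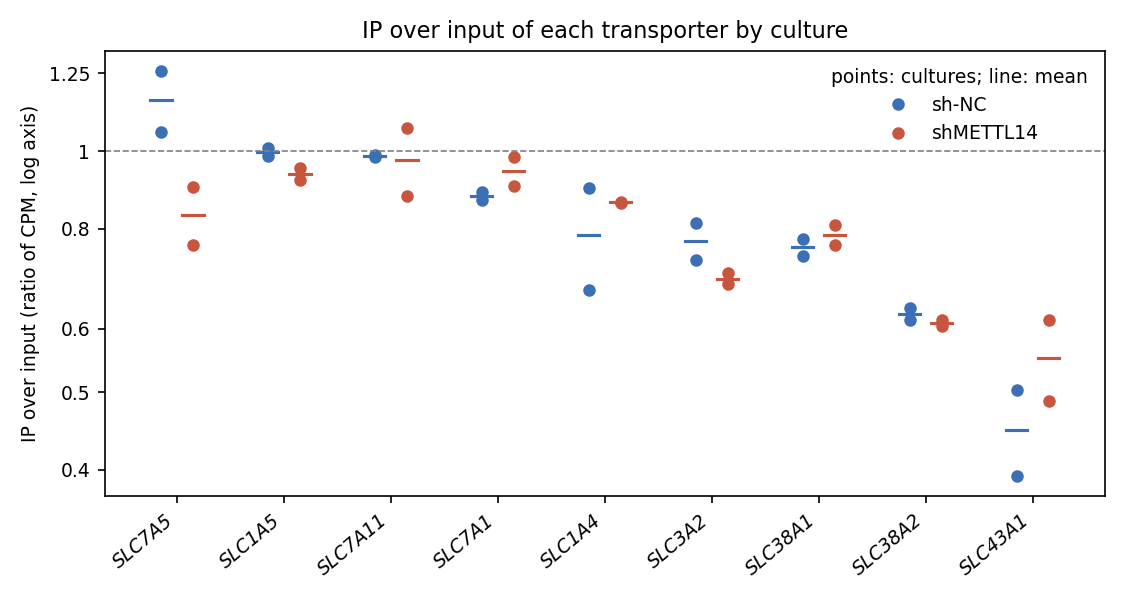
IP over input of each transporter by culture on a log axis, as the ratio of TMM-scaled CPM, with 1 point per culture, a line at the mean and a dashed line at 1. SLC7A5, chosen for its fall, is above 1 in both sh-NC cultures and at 0.901 and 0.764 in shMETTL14. Of the 9 genes, 5 overlap between the arms. Over all genes tested, both shMETTL14 ratios lay below both sh-NC ratios for 17.2% and above them for 17.2%.

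The genes whose log2 CPM over the 8 libraries was most like that of SLC7A5, among 16441 genes with a mean of at least 50 counts, were CAB39 (Pearson r 0.98), C9orf64 (0.98), NOD1 (0.98), SLC7A6 (0.98) and PDE3A (0.98), and the least like were GRIP2 (-0.98), ZNF783 (-0.98), MED29 (-0.97), NEFMP1 (-0.96) and GRIK3 (-0.96). SLC7A6 encodes another light chain of SLC3A2. Among the members, SLC1A5 (0.95), SLC7A11 (0.90) and SLC7A1 (0.87) were most like SLC7A5, SLC38A2 was at 0.53, SLC1A4 at 0.51 and SLC3A2 at 0.35, and SLC43A1 (-0.06) and SLC38A1 (-0.13) were below 0. The log2 change of IP over input was -0.47 for SLC7A5, and from -0.32 (CAB39) to -0.06 (SLC7A6) in the 5 genes most like it. It was -0.09 for SLC1A5, -0.02 for SLC7A11 and 0.10 for SLC7A1. All points share the same 8 libraries, and the IP and input of a culture share their RNA.

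Other genes of the pathway were read from lists. Of 40 further amino acid transporters, 25 were tested on the inputs, where 2 rose and 3 fell, beside 11.7% of all genes called higher and 12.3% lower, with a median log2 change of -0.07. DESeq2 gave the same counts, beside 1833 higher and 2016 lower of all 22245 genes. SLC38A11, of the SNAT family, rose from 9.70 and 10.1 CPM to 15.3 and 16.2 CPM (log2 change 0.68, adjusted p 4.85e-06). SLC43A2 (LAT4), the closest relative of SLC43A1 and likewise a leucine carrier, rose from 3.27 and 3.41 CPM to 5.30 and 5.21 CPM (log2 change 0.66, adjusted p 0.00184). SLC7A14 fell by 0.33, SLC7A6 by 0.20 and SLC7A2, an arginine carrier, by 0.15 on the log2 scale (adjusted p 6.85e-05, 0.00513 and 0.0172). Without sh-NC culture 1 the change of SLC7A2 was -0.083 (adjusted p 0.278). SLC7A2 and SLC7A6 also missed the threshold without either shMETTL14 culture and with no filter on low counts, SLC7A6 without sh-NC culture 1 (adjusted p 0.0711), and SLC43A2 without shMETTL14 culture 2 (adjusted p 0.0650).

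Of 34 genes of amino acid sensing by mTORC1, 7 rose and 3 fell in the inputs, beside 11.7% of all genes called higher and 12.3% lower, with a median log2 change of 0.04. DESeq2 called 5 higher and 3 lower, beside 1833 higher and 2016 lower of all 22245 genes. The sestrins, which restrain mTORC1, moved both ways. SESN2 rose from 11.0 and 12.8 CPM to 19.2 and 19.3 CPM (log2 change 0.70, adjusted p 1.82e-06) and SESN1 from 9.14 and 9.75 CPM to 11.8 and 11.5 CPM (0.31, adjusted p 0.0267). The SESN1 call was lost with DESeq2 (adjusted p 0.105), with no filter (0.0974), without sh-NC culture 1 (0.157) and without either shMETTL14 culture (0.168 and 0.159). SESN3, the most abundant of them in CPM, fell from 88.0 and 80.4 CPM to 56.2 and 54.6 CPM (-0.60, adjusted p 2.57e-09). Of the lysosomal Ragulator scaffold, LAMTOR4 rose (log2 change 0.30, adjusted p 5.05e-04) and LAMTOR3 fell (-0.50, adjusted p 2.30e-04), and FNIP2, a partner of folliculin, fell (-0.48, adjusted p 1.93e-05). LAMTOR4 and LAMTOR3 missed the threshold without shMETTL14 culture 2 (adjusted p 0.0983 and 0.0575).

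Of 12 genes of the amino acid starvation response, 3 rose and 5 fell, beside 11.7% of all genes called higher and 12.3% lower, with a median log2 change of -0.07. DESeq2 called 1 higher and 4 lower, beside 1833 higher and 2016 lower of all 22245 genes. CEBPB fell from 90.0 and 77.5 CPM to 58.8 and 58.6 CPM (log2 change -0.51, adjusted p 1.95e-07), TRIB3 from 13.6 and 13.9 CPM to 9.05 and 10.7 CPM (-0.47, adjusted p 0.00103) and ASNS, asparagine synthetase, from 40.3 and 38.1 CPM to 32.3 and 33.6 CPM (-0.24, adjusted p 0.00366). CHAC1, which degrades glutathione, rose from 1.51 and 1.47 CPM to 2.45 and 2.44 CPM (0.72, adjusted p 0.0194), at 53 to 104 counts per input, and EIF4EBP1 and EIF2AK4 each rose by 0.13 on the log2 scale (adjusted p 0.0139 and 0.0394). CHAC1 and EIF2AK4 lost the call with DESeq2 (adjusted p 0.0933 and 0.0949), with no filter, and when any 1 of the 4 cultures was left out. EIF4EBP1, TRIB3 and ASNS lost it with no filter and without shMETTL14 culture 1, EIF4EBP1 and ASNS without shMETTL14 culture 2, and ASNS without sh-NC culture 1. ATF4 itself was at 342 and 340 CPM in sh-NC and 312 and 314 CPM in shMETTL14, a small fall of RNA (log2 change -0.12, adjusted p 0.00898) that missed the threshold without either shMETTL14 culture and with no filter. Its protein was not measured. MYCN was at 4448 and 4220 CPM in sh-NC and 4306 and 4272 CPM in shMETTL14, with a log2 change of -0.01 and 2 standard errors from -0.06 to 0.05 (adjusted p 0.878). For the change of IP over input, 0 genes of these lists passed by edgeR or DESeq2. At an unadjusted p edgeR called 0 of the 25 transporters, 2 of the 34 sensing genes (1 higher, 1 lower) and 0 of the 12 starvation genes. DESeq2 called 0 of the 34 higher and 1 lower. Over all 22953 genes, edgeR called 696 higher and 760 lower at an unadjusted p, and DESeq2 317 and 409.

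Promoter windows of RefSeq on GRCh38.p14, from 250 bases before to 50 after a start, were found for 8 of the 10 transporters (15 windows). SLC7A11 and SLC7A3 had no window and were not searched. The windows were searched on both strands for the C/EBP-ATF response element TGATGNAAN, through which ATF4 acts, and for the E-box CACGTG, to which MYC proteins bind with MAX. The motifs do not overlap in letters. The E-box was in 7.26% of all 35116 windows and the response element in 3.61%. The matches lying wholly before a start are shown with 10 bases on either side, motif in capitals and 5′ to 3′ along the gene, because they belong to a member that fell most in the IPs, to a member that fell in the inputs and to one that did not pass.
SLC7A5, E-box, chr16:87869622-87869647, reverse strand: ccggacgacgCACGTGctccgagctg
SLC1A5, E-box, chr19:46787328-46787353, reverse strand: cgggagtggtCACGTGgacaggacgg
SLC1A5, response element, chr19:46784893-46784921, reverse strand: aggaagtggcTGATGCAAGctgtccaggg
SLC43A1, E-box, chr11:57515799-57515824, reverse strand: gcgggcgagtCACGTGcgcgtgaaac
The E-box of SLC7A5 began 130 bases before its start, that of SLC43A1 112 bases and that of SLC1A5 50 bases before an alternative start, where the response element of SLC1A5 began 97 bases before a further start. Of the members with an E-box, SLC7A5 (log2 change -0.47) and SLC1A5 (-0.25) had lower input levels in shMETTL14, and SLC43A1 had a change of -0.05 that did not pass. The E-box was chosen for the search after seeing the data, and its part in these changes was not tested. The response element was also matched at positions that reach past a start in SLC1A4, SLC3A2, SLC38A1 and SLC7A1, of which SLC38A1 and SLC3A2 did not pass the test on the inputs and the other pair fell. SLC38A2 had neither motif in its window. A match describes letters in the window and not a bound site.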

How the data were processed

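The authors deposited raw counts per gene (GRCh38, with Trimmomatic 0.36 in the submitters' processing notes). The aligner, the counter, its strand setting and the use of the unique molecular identifiers are not given in the sources used here, so counting limits cover counting error only. Length was the merged exon length for 99.986% of genes. Samples were grouped by their titles. The counts were fitted with edgeR 4.0.16 in R 4.3.3 (filterByExpr, TMM, quasi-likelihood tests, Benjamini-Hochberg over all genes tested, threshold 0.05): 4 inputs for RNA level, 4 group means over 8 libraries for IP over input and its change, and 4 IPs alone. DESeq2 1.42.0, other scalings and filters, a replicate block and leaving out each culture were alternatives. Scripts were tested on simulated data. By the protocol, the fragments of a culture were divided into IP and input, which pairs them. The correlation of their deviations was 0.0040 in sh-NC and 5.7e-05 in shMETTL14. Replicates differed beyond sampling noise (chi-square per gene 2.40 to 3.85). Members and lists were chosen with earlier results of these data known, and the E-box after seeing the data. Named list genes were at most the 3 largest rises and falls past the threshold with a mean of 50 counts and no overlap. Figures were drawn with matplotlib 3.10.9.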

Additional observations from a re-analysis of the deposited data

Results flagged for a closer look

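SLC7A5 IP over input was above 1 in both sh-NC cultures (1.06 and 1.26) and below 1 in both shMETTL14 cultures (0.901 and 0.764), a log2 change of -0.4661, so that every culture of one arm lay on the other side of 1 from every culture of the other. No test of the difference is given here, because the gene was chosen for it. With library sizes alone as scaling, 1 sh-NC culture was at 0.985 and the pattern around 1 was not met.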

How the results depend on the processing

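With 2 cultures per arm, and no statement that they were separate infections, the spread between cultures is poorly known. SLC7A3 had too few counts to be tested, and SLC43A1, SLC1A4 and SLC7A11 had the widest errors. In the inputs 5 of the 8 transporters other than SLC7A5 fell, and 3 to 5 did when each culture was left out. Over all genes 2607 rose and 2732 fell, 1082 and 1072 with no filter on low counts, and 656 to 2366 and 925 to 2590 when each culture was left out. IP over input in shMETTL14 was lower for 4 of the 8 transporters, 7 with library sizes alone and 7 with at least 10 counts in every library. Over all genes it was lower for 6673, and for 5892 to 8080 under the alternatives that kept every culture. For its change, 1 gene was lower over all genes, 0 with DESeq2, 2 with RLE factors, 12 (and 1 higher) with no filter, 3 with at least 10 counts, and 0 to 116 (0 to 9 higher) when each culture was left out. The IP libraries alone, which also read RNA level, gave 2207 higher and 2667 lower, and 5 of the transporters. The number of neighbours that kept their order of IP over input was 8, and 5 to 7 when each culture was left out. Apart from the IP libraries alone, given below, signs turned at values that did not pass. In the inputs they did so for MYCN (0.0056 with no filter, -0.047 to 0.028 when each culture was left out), SLC43A1 (-0.25 to 0.11) and SLC3A2 (-0.171 to 0.011, of which the first passed). For IP over input they did so for SLC1A5 in sh-NC (0.0020 with DESeq2, 0.0021 with RLE factors, 0.0081 with no filter, -0.0059 to 0.018 when each culture was left out) and SLC7A11 in shMETTL14 (-0.18 to 0.10). For its change they did so for SLC1A4 (-0.076 to 0.36), SLC7A11 (-0.17 to 0.11) and METTL14 (-0.0026 to 0.19), again with each culture left out. Set against the change of IP over input, the IP libraries alone had the other sign for SLC1A4 (-0.13), SLC7A1 (-0.54) and METTL14 (-1.70). Of these, SLC7A1 and METTL14 passed in the IP libraries alone. That contrast also holds the change of RNA level, which was -0.28, -0.63 and -1.79 in the inputs. It is therefore another measure, and its signs need not be those of the change of IP over input. With the replicate block the counts were 5 lower transporters in the inputs, 6 and 4 for IP over input and 0 for its change, METTL14 fell by 1.79, and no transporter's call changed. Same-numbered cultures of the arms shared only a number (correlation of deviations -0.012). Of 717 values of named genes under the alternatives, 634 kept direction and side of the threshold, 52 lost the call, 12 gained it, 17 turned sign and 2 moved by more than the spread. These values include the IP libraries alone, set against the change of IP over input although they also read RNA level.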
